A study of Macaca mulatta with 12 samples.

Results

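The enzymes of glycolysis and of the citric acid cycle were examined in the dorsal raphe nucleus of female rhesus macaques (Macaca mulatta), with the glucose transporters, lactate dehydrogenases and pyruvate enzymes that connect both routes. The set held 38 genes, chosen by symbol, and each gene was represented by the brightest probe set over the 12 arrays among those annotated to that symbol alone. Such a probe set was found for 35 of the 38 genes, out of 8226 genes in the whole table, and HK1, SUCLG1 and FH were not analysed here. After the dimmest 40% of all probe sets were left out, 31 members were tested, and the remaining 4 (HK2, PDHA1, DLAT and DLD) are described by their values alone.

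Each array carried the RNA of 1 monkey, and each group held 3 monkeys: estrogen plus progesterone, estrogen alone, progesterone alone, and placebo. Steroid was released from Silastic capsules placed under the skin of the upper back for 1 month before the tissue was taken, so that the study compared what each ovarian steroid, and their combination, did to RNA levels in this nucleus. The labels name no dose, and they carry the code OVX, the usual short form for ovariectomized, on the placebo animals alone. The titles of the 3 progesterone arrays bear an EP number while their source names bear P1 to P3, and the source names were followed. The array was designed for human transcripts (Affymetrix), so a mismatch between the human probes and the macaque RNA can lower the intensity of a probe set, and intensities were compared between groups for 1 probe set at a time.

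Glycolysis splits glucose into pyruvate in the cytosol, and its flux is set mainly by glucose entry, hexokinase, phosphofructokinase and pyruvate kinase. Pyruvate is then reduced to lactate by lactate dehydrogenase, or enters the mitochondrion, where the pyruvate dehydrogenase complex turns it into acetyl-CoA for the citric acid cycle and pyruvate carboxylase turns it into oxaloacetate. In brain, neurons take up glucose through SLC2A3 and depend heavily on the mitochondrial route, while capillary endothelium and astrocytes use SLC2A1, and astrocytes carry most of the pyruvate carboxylase.

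Each array had been scaled to a 2% trimmed mean of 200.1, the array medians lay between 74.2 and 87.1, and rank correlations between arrays ran between 0.911 and 0.968. Array 1 of the estrogen plus progesterone group and array 1 of the estrogen group stood apart: their 28S ribosomal RNA control read 1354 and 841, against at most 179 on the other 10 arrays, and their ratio of the 3′ to the 5′ GAPDH control was 2.05 and 2.45, against at most 1.46 elsewhere. Markers of serotonin neurons were detected in every group, with SLC6A4, the serotonin transporter, between 220.3 and 495 on the 12 arrays, whereas TPH1 lay between 0.527 and 3.60. Over the 7 serotonin neuron markers of 8 listed that had a probe set, the summed intensity was 863 to 1286 with estrogen plus progesterone, 1139.5 to 1243 with estrogen, 781 to 951 with progesterone and 1052 to 1299 with placebo. The 9 astrocyte markers summed to 7730 to 8291, 6639 to 8192, 6975 to 7182 and 4335 to 7742 in the same order of groups; the low placebo sum belongs to placebo array 1, where SLC1A2, the glial glutamate transporter, read 293 against 3373 to 5208 on the other 11 arrays.

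No member passed the test in any comparison. Limma, with Benjamini-Hochberg adjustment over all 7535 probe sets tested, called 0 of 31 members at an adjusted p under 0.05 against placebo with estrogen plus progesterone (background, 0.0133% of all probe sets called), with estrogen (0%) or with progesterone (0.0398%). It called 0 of 31 in estrogen plus progesterone against estrogen (0%) and against progesterone (0.0133%), 0 in the interaction of the steroids (0%) and 0 for any difference among the 4 groups (0.0531%). At an unadjusted p under 0.05, the members numbered 0 of 31 with estrogen plus progesterone (3.38% of all probe sets), 0 with estrogen (3.07%) and 3 with progesterone (8.27%), all against placebo. The median log2 change of the 31 members against placebo was 0.05 with estrogen plus progesterone, 0.04 with estrogen and 0.02 with progesterone, beside 0.00 over all probe sets tested in each of these comparisons. The 3 comparisons share the placebo arrays.

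**Figure D1:**
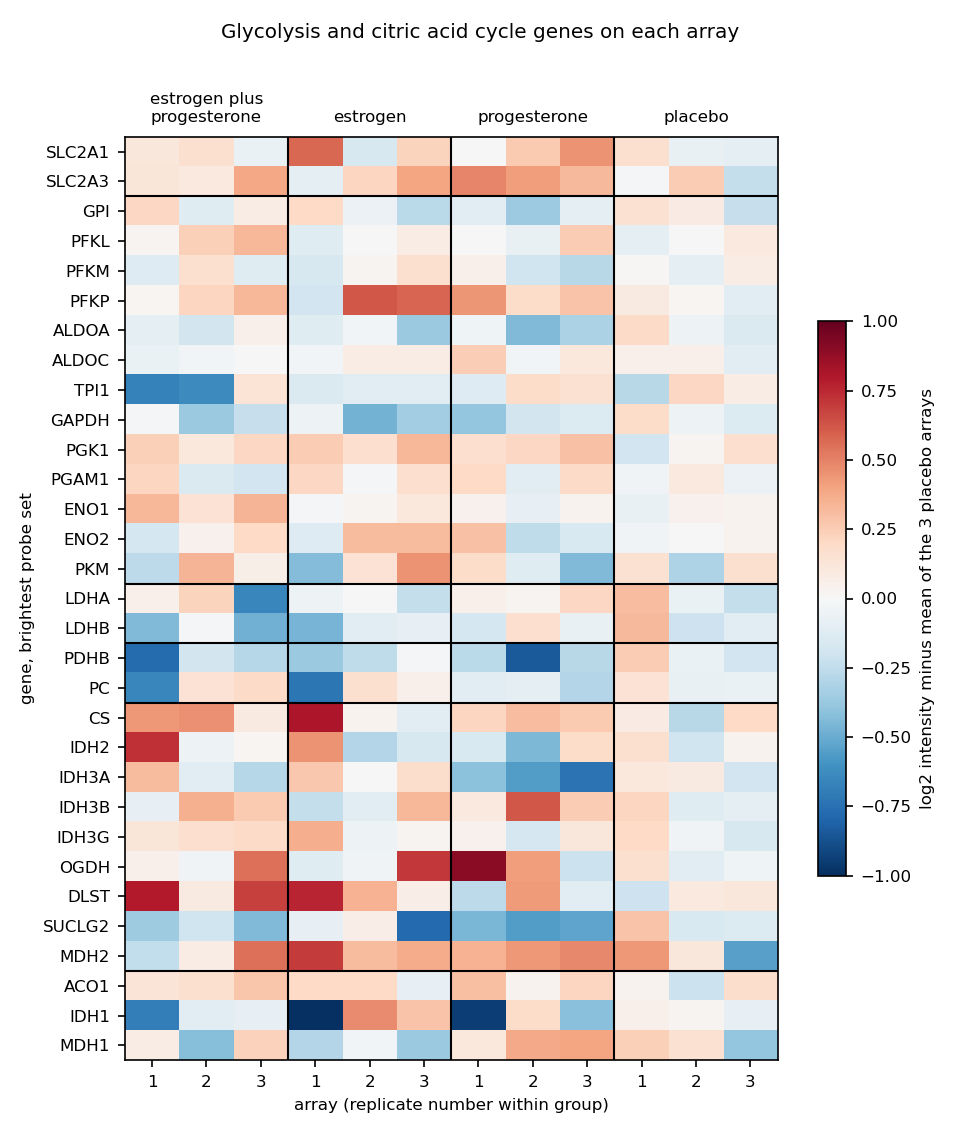
Log2 intensity of each of the 31 tested members (rows, brightest probe set, ordered by role) on each of the 12 arrays (columns) after quantile normalization, as the difference from the mean of the 3 placebo arrays; red is higher and blue is lower. DLST, OGDH and IDH1 show their extremes on individual arrays within a group rather than on a whole group.

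How large a change could have gone unseen is given by the 95% intervals of the log2 changes, whose median half-width was 0.45. With estrogen plus progesterone, 29 of 31 intervals lay within a 2-fold change in either direction and 14 lay within 1.5-fold, with DLST and IDH1 reaching past 2-fold. With estrogen, 30 lay within 2-fold and 13 within 1.5-fold, and MDH2 alone reached past 2-fold. With progesterone, 29 lay within 2-fold and 12 within 1.5-fold, with OGDH and IDH1 reaching past it. PFKL, PFKM, ALDOC, PGK1, PGAM1, ENO1, IDH3G and ACO1 were bounded within 1.5-fold under all 3 treatments. These intervals are for the brightest probe set after quantile normalization, and they are not adjusted for the number of probe sets. With progesterone, the other tested probe set of PGK1 had −0.34 ± 0.30 (SE), and ALDOC had 0.32 in the values as deposited.

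**Figure D2:**
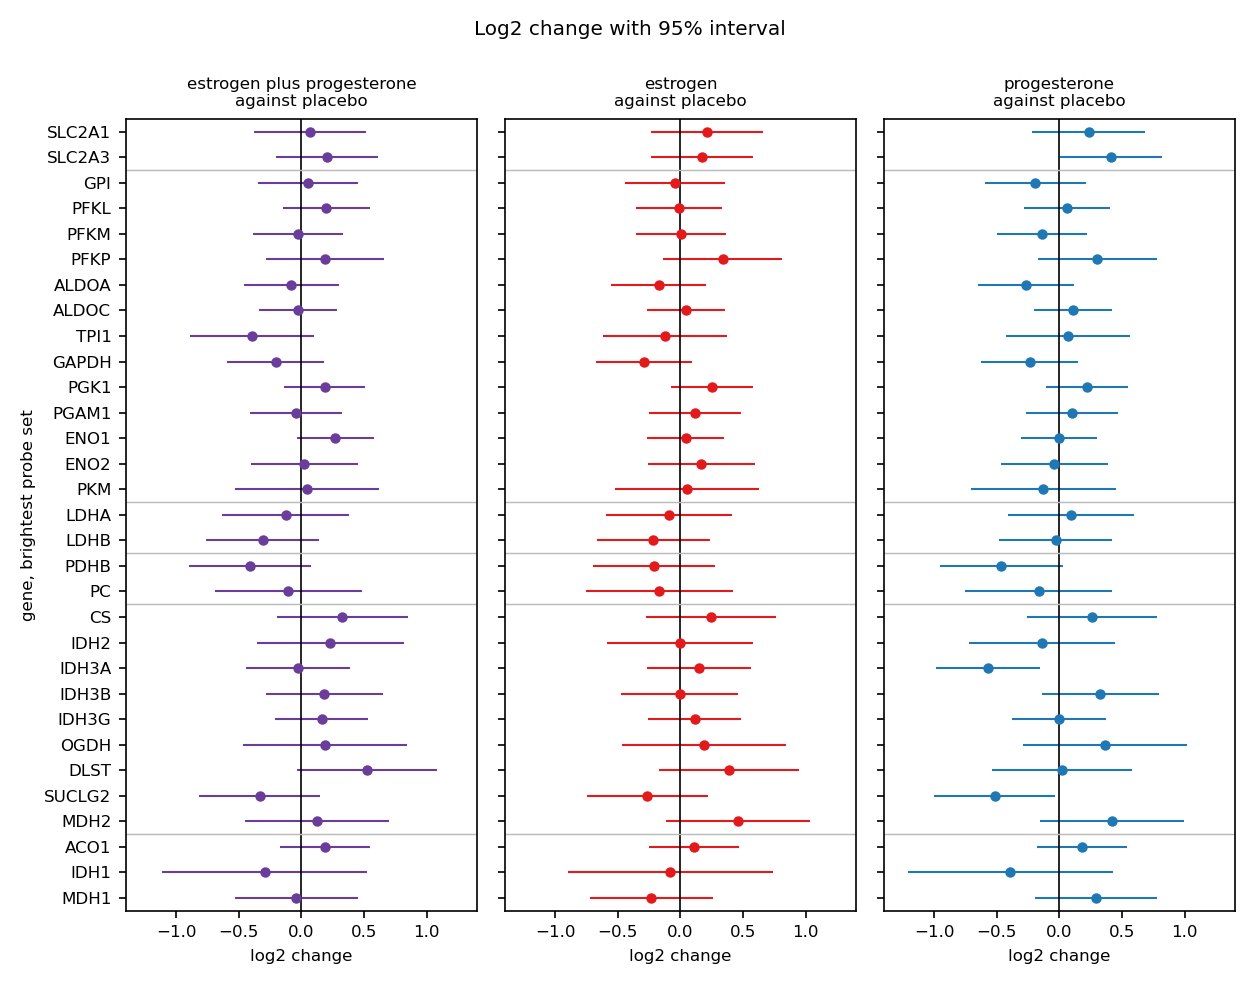
Log2 change against placebo (points) with 95% intervals (lines) for the 31 tested members, in the panels estrogen plus progesterone, estrogen and progesterone, from limma over all 12 arrays. The intervals of IDH3A, SUCLG2 and SLC2A3 exclude 0 with progesterone, before adjustment over all probe sets.

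The width of these intervals follows the spread between monkeys of a group. The median residual SD was 0.24 on the log2 scale over the 31 members and 0.30 over all probe sets tested, while the median mean intensity was 525 for the members and 187 for all. The spread was taken after quantile normalization, and the part of the normalization in it was not tested. For ALDOC, placebo arrays 1 and 2 had the same normalized log2 value, 13.06, although their deposited intensities were 8946 and 7475. ENO1, the widely expressed enolase, had the smallest spread at 0.08. ALDOC, the brain form of aldolase, followed at 0.09 and PGK1, phosphoglycerate kinase, at 0.11. IDH1, the cytosolic NADP-dependent isocitrate dehydrogenase, had the largest at 0.52, with intensities of 80.9, 119.7 and 118 with estrogen plus progesterone, 66.7, 182 and 151 with estrogen, 62.9, 143 and 92.2 with progesterone, and 125, 131 and 123 with placebo. The 3 placebo values of IDH1 lay close together and array 1 of every treated group read below all of them.

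**Figure D3:**
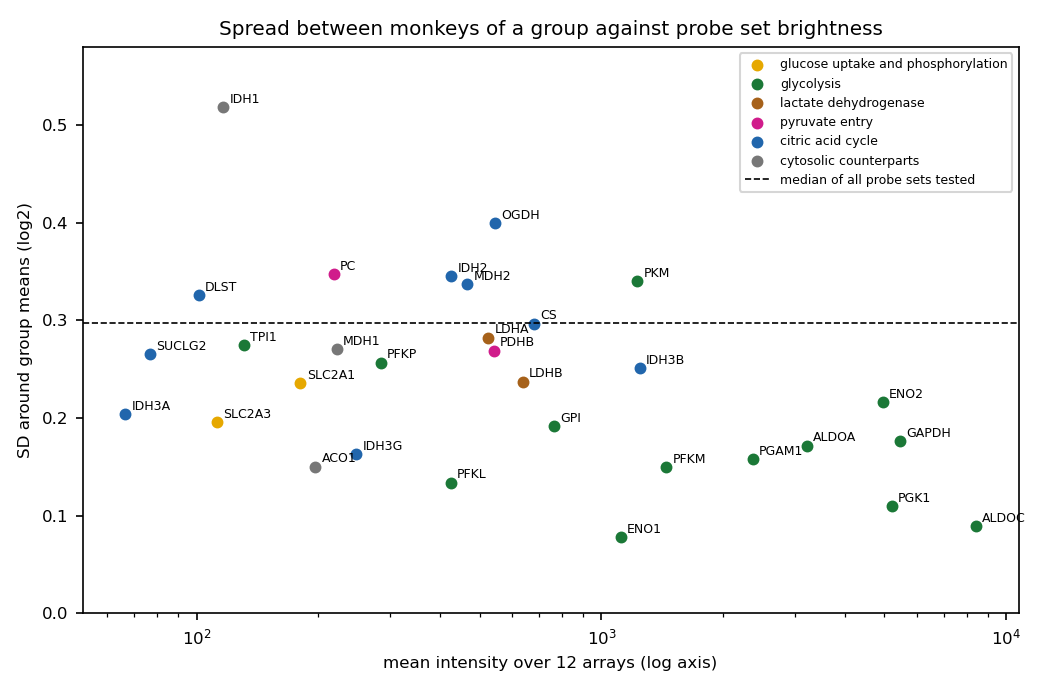
Residual SD of log2 intensity around the 4 group means (vertical axis) against mean intensity over 12 arrays (horizontal axis, log scale) for the 31 tested members, coloured by role; the dashed line is the median of all probe sets tested, 0.30. ENO1, ALDOC and PGK1 lie lowest, and IDH1 stands highest at 0.52.

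With progesterone, 3 of 31 members had an unadjusted limma p under 0.05, or 9.68%, against 8.27% of all probe sets. IDH3A and SUCLG2, both of mitochondrial enzymes, were lower, and SLC2A3, a glucose transporter, was higher. MDH2, also mitochondrial, had a log2 change of 0.42, beside 0.41 for SLC2A3, but was not among the 3. IDH3A is the catalytic subunit of the NAD-dependent isocitrate dehydrogenase, a rate-controlling enzyme of the cycle. It read 51.0, 45.8 and 38.9 on the progesterone arrays, against 71.4, 76.1 and 61.1 on the placebo arrays. Every progesterone value was below every other array of the series, the estrogen plus progesterone arrays (95.1, 65.4 and 54.6) and the estrogen arrays (94.2, 70.3 and 75.1) included. The log2 change against placebo was −0.57 ± 0.19 (SE, n = 3 each; 95% interval −0.98 to −0.16; limma adjusted p = 0.453). The probe set is dim, at percentile 8.69 of the mean intensities tested. All its progesterone values lay below 53.2, the mean intensity at or under which probe sets were left out. It was tested because its mean over all arrays, 66.6, was above that limit. The part of background signal in the progesterone values was not tested. In tissue RNA, fewer cells of a type and less RNA per cell cannot be told apart.

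SUCLG2, the beta subunit of the GDP-forming succinyl-CoA ligase, had intensities of 65.4, 59.7 and 60.9 with progesterone, against 107, 83.9 and 84.1 with placebo. The progesterone arrays lay close together and below all placebo arrays, and the log2 change was −0.51 ± 0.22 (SE, n = 3 each; limma adjusted p = 0.570). SLC2A3, the neuronal glucose transporter, had 138, 128 and 121 with progesterone, against 89.2, 116 and 80.9 with placebo. Its progesterone arrays were all above the placebo arrays, and the log2 change was 0.41 ± 0.19 (SE, n = 3 each; limma adjusted p = 0.597). These are the 3 members with an unadjusted p under 0.05, and none passed the adjusted threshold. Under the alternative settings in which it was tested, IDH3A stayed under an unadjusted limma p of 0.05 in this comparison. SLC2A3 and SUCLG2 did not always do so: SLC2A3 was above it with no filter, and SUCLG2 on the values as deposited.

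The progesterone and placebo intensities did not overlap for 9 of 31 members, or 29.0%, where 16.8% of all probe sets tested did not overlap. On the higher side were SLC2A3, PFKP, ALDOC, PGK1 and CS (8.59% of all probe sets) and on the lower side PDHB, PC, IDH3A and SUCLG2 (8.23%). In the normalized values, a comparison added after seeing the data, 7 of these 9 did not overlap, beside 16.7% of all probe sets, and ALDOC and PGK1 did. The lower ones are all mitochondrial, and 4 of the 5 higher ones act in glucose uptake or glycolysis, CS being citrate synthase of the mitochondrial cycle. By role, however, the medians lay near 0: −0.00 over the 13 glycolytic members, of which 6 were above 0 and 7 below, and 0.02 over the 9 members of the mitochondrial cycle, of which 5 were above 0 and 4 below. Among the cycle members above 0, MDH2, OGDH, IDH3B and CS had log2 changes of 0.42, 0.37, 0.33 and 0.26 with progesterone, while ALDOA, GAPDH and GPI of glycolysis had −0.27, −0.24 and −0.19, all without passing the test. These sizes moved with individual arrays. Without placebo array 3, MDH2 had 0.15, and without placebo array 2, CS had 0.12. Without progesterone array 1, OGDH had 0.10, and without progesterone array 2, IDH3B had 0.18 and GPI −0.10. Without placebo array 1, ALDOA had −0.16 and GAPDH −0.14.

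Both tested members at the entry of pyruvate were on the lower side, while PDHA1, DLAT and DLD, of the same complex as PDHB, were too dim to test. PDHB, the beta subunit of the decarboxylase of the pyruvate dehydrogenase complex, had intensities of 536, 348 and 523 with progesterone, against 770.3, 612 and 560.0 with placebo. The intensities did not overlap, with progesterone array 1 just below the lowest placebo array, and the log2 change was −0.46 ± 0.22 (SE, n = 3 each; limma adjusted p = 0.635). PC, pyruvate carboxylase, had 212, 214 and 184 with progesterone, against 246, 222 and 224 with placebo, a log2 change of −0.16. The placebo range of PDHB was wide, since placebo array 1 read 770.3. Over the alternative settings the log2 change of PDHB with progesterone lay between −0.56 and −0.27.

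Among the higher members that did not overlap, the largest log2 change after SLC2A3 was that of PFKP, the platelet form of phosphofructokinase, with 331, 270.3 and 289 with progesterone, against 248, 249 and 229 with placebo. That is a log2 change of 0.30 ± 0.22 (SE, n = 3 each), and PFKL and PFKM, the liver and muscle forms, had 0.06 and −0.14. ALDOC, an aldolase found mainly in astrocytes in the forebrain, had 9637, 9280.4 and 10073 with progesterone, against 8946, 7475 and 6988 with placebo. All progesterone arrays of ALDOC were above all other arrays of the series in the values as deposited. Its log2 change was 0.32 in those values (limma adjusted p = 0.648) and 0.11 after quantile normalization, and the groups overlapped after normalization. PGK1 had 5062, 5742 and 5832 with progesterone, against 4523, 4339.5 and 4982 with placebo, a log2 change of 0.22; its lowest progesterone array and its highest placebo array had the same normalized value.

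Cell type markers were set beside these values. The summed serotonin neuron markers did not overlap between progesterone (781 to 951) and placebo (1052 to 1299). By gene, 1 of the 6 that were tested did not overlap, SLC6A4, or 16.7%, against 16.8% of all probe sets. An unadjusted limma p under 0.05 was found for 2 of the 6 (8.27% of all probe sets). These were SLC6A4 at −0.58 and GATA3 at −0.62 on the log2 scale, and GATA3 overlapped. Among 9 astrocyte markers, GFAP, GLUL and SOX9 were below placebo on all 3 progesterone arrays (8.23% of all probe sets). Their log2 changes were −0.42, −0.45 and −0.80, while the list's median was 0.08 and 5 of the 9 were above 0. The higher ones were AQP4 at 0.20, S100B at 0.29, SLC1A3 at 0.11, ALDH1L1 at 0.08 and SLC1A2 at 1.16, the last with its low placebo array 1. The 11 neuron markers summed to 34452 to 39407 with progesterone and 32187 to 37217 with placebo. Of the 6 oligodendrocyte markers, CNP and MAL were above placebo on all 3 progesterone arrays (8.59% of all probe sets). Their log2 changes were 0.22 and 0.50, and 5 of the 6 were above 0. The oligodendrocyte list summed to 18561 to 25664 with progesterone and 17168 to 20311 with placebo. Among the 6 tested microglia markers, CX3CR1 had −0.52, with an unadjusted limma p under 0.05. The other 5 were above 0, and the median over the 6 was 0.19. The microglia list summed to 1089 to 1594 with progesterone and 1154 to 1399.7 with placebo. The part of these cell types in the values of IDH3A, SUCLG2, PDHB, SLC2A3 and ALDOC was not tested.

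**Figure D4:**
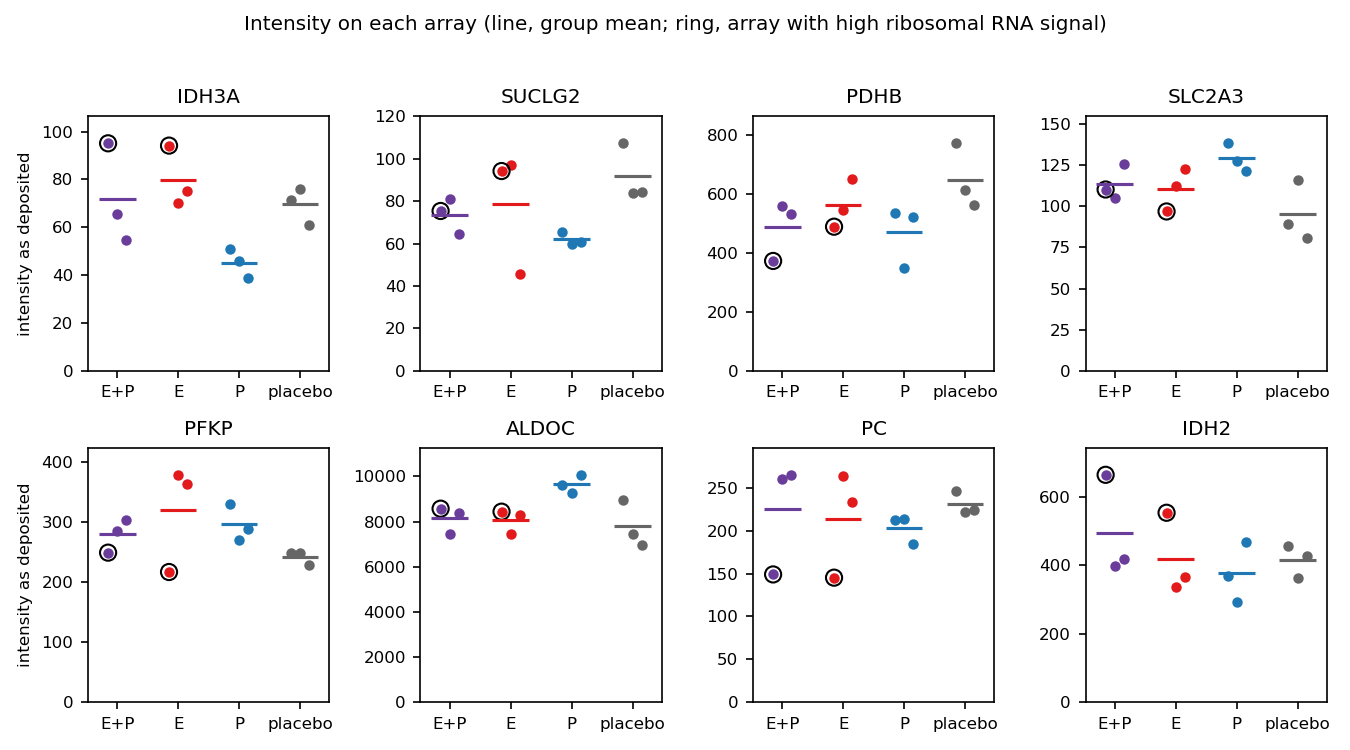
Deposited intensity of 8 members on each array (points; bar, group mean) with estrogen plus progesterone (E+P), estrogen (E), progesterone (P) and placebo; rings mark the 2 arrays of high ribosomal RNA signal. The progesterone points of IDH3A (38.9 to 51.0) lie below the placebo points (61.1 to 76.1), and the ringed points are the highest of IDH2 and IDH3A and the lowest of PC.

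With estrogen, none of the 31 members had intensities that did not overlap with placebo (background, 6% of all probe sets, 2.8% higher and 3.2% lower). The largest log2 changes were 0.46 ± 0.26 for MDH2, the mitochondrial malate dehydrogenase, 0.39 ± 0.26 for DLST, the succinyltransferase of the oxoglutarate dehydrogenase complex, and 0.34 ± 0.22 for PFKP on the higher side (SE, n = 3 each). Without placebo array 3 the change of MDH2 was 0.19, and without estrogen array 1 that of DLST was 0.21. GAPDH at −0.29 ± 0.18 and SUCLG2 at −0.26 ± 0.22 were lowest. The limma adjusted p was 1 for each of them. PFKP had 217, 379 and 364 with estrogen, against 248, 249 and 229 with placebo, so that estrogen arrays 2 and 3 were above every placebo array and array 1, which had the high ribosomal RNA signal, was below. Without that array and its counterpart in the estrogen plus progesterone group, the log2 change of PFKP was 0.61 ± 0.15 (SE, n = 2 and 3; limma adjusted p = 0.816).

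By role, the estrogen group's medians against placebo were 0.19 for both glucose transporters, 0.04 for the 13 glycolytic members, −0.16 for both lactate dehydrogenases, −0.19 for both pyruvate entry members, 0.15 for the 9 members of the mitochondrial cycle and −0.08 for the 3 cytosolic counterparts. LDHA, the form common in glycolytic tissue, and LDHB, the form common in oxidative tissue, had log2 changes of −0.09 and −0.22 with estrogen. With progesterone they had 0.09 and −0.03, and with both steroids −0.13 and −0.31. LDHB read 884 on placebo array 1, against 596 and 639 on the other placebo arrays, and all estrogen arrays (493 to 663) lay inside or below that range.

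With estrogen plus progesterone, 5 of 31 members did not overlap with placebo, or 16.1%, against 8.68% of all probe sets. ENO1 and PFKP were on the higher side (4.49% of all probe sets) and PDHB, SUCLG2 and IDH1 on the lower (4.19%). In the normalized values 3 of these 5 did not overlap, ENO1, SUCLG2 and IDH1, beside 8.93% of all probe sets; PFKP, whose lowest array with both steroids and highest placebo array were nearly level, and PDHB overlapped. ENO1 had 1277, 1139 and 1355 with both steroids, against 1023, 1080.1 and 1058 with placebo, a log2 change of 0.27 ± 0.14 (SE, n = 3 each; limma adjusted p = 0.999). PDHB had 372, 559.6 and 532 with both steroids, against 770.3, 612 and 560.0 with placebo, and array 2 was nearly level with the lowest placebo array. Its log2 change was −0.41 ± 0.22 (SE, n = 3 each; limma adjusted p = 0.999), and −0.24 without the 2 arrays of high ribosomal RNA signal. SUCLG2 had 75.4, 81.0 and 64.4 with both steroids, against 107, 83.9 and 84.1 with placebo, a log2 change of −0.33 ± 0.22 (SE, n = 3 each; limma adjusted p = 0.999).

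The largest log2 change with both steroids was that of DLST, 0.52 ± 0.26 (SE, n = 3 each; limma adjusted p = 0.999). DLST had 153, 89.6 and 134 with estrogen plus progesterone, against 65.3, 89.7 and 90.5 with placebo. Arrays 1 and 3 were above the placebo range and array 2 was inside it, and array 1 had the high ribosomal RNA signal. Over the alternative settings in which DLST was tested, the change lay between 0.39 and 0.74. TPI1, which interconverts the triose phosphates, had 89.5, 88.9 and 152 with both steroids, against 107, 163 and 151 with placebo. Arrays 1 and 2 were below every other array of the series and array 3 was among the placebo values. The log2 change of TPI1 was −0.39 ± 0.23 over all 3 arrays, and −0.66 ± 0.20 without array 3 (SE, limma adjusted p = 0.999). Over all alternative settings it lay between −0.66 and −0.25. Array 1, 1 of the low arrays, had the high ribosomal RNA signal.

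Adding progesterone to estrogen gave no member whose arrays did not overlap (0 of 31, against 6.38% of all probe sets, 3.77% higher and 2.61% lower; in the normalized values 1, ENO1, on the higher side) and no member with an unadjusted limma p under 0.05 (2.8% of all probe sets). The log2 changes ran between −0.33 for MDH2 and 0.23 for IDH2, with a median of −0.01, and 17 of the 31 intervals lay within 1.5-fold. Adding estrogen to progesterone gave 1 member with an unadjusted p under 0.05 (7.68% of all probe sets) and 4 that did not overlap, or 12.9% (16%): ENO1, IDH3A and IDH3G were on the higher side (8.23%) and ALDOC on the lower (7.8%) with both steroids. In the normalized values ALDOC overlapped and SUCLG2 did not, so that all 4 were on the higher side. IDH3A had a log2 difference of 0.54 ± 0.19 (SE, n = 3 each; limma adjusted p = 0.488), its 95.1, 65.4 and 54.6 with both steroids standing against 51.0, 45.8 and 38.9 with progesterone. Without the 2 arrays of high ribosomal RNA signal the difference was 0.38 ± 0.17 (SE, n = 2 and 3; limma adjusted p = 0.541). The progesterone values of IDH3A all lay below 53.2, the mean intensity at or under which probe sets were left out.

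The interaction asks whether the effect of progesterone differed in the presence of estrogen. It gave 0 of 31 members at an unadjusted limma p under 0.05 (5.02% of all probe sets), with a median of −0.06 and 9 of 31 intervals reaching past 2-fold, so only large interactions were bounded. MDH2 was farthest from 0 at −0.76 ± 0.37 (SE; limma adjusted p = 0.967). Its intensities were 323, 402 and 575 with both steroids, 599.5, 477 and 492 with estrogen, 489, 517 and 529 with progesterone and 516, 416 and 263 with placebo. The progesterone arrays lay close together, and the 4 groups overlapped. Over the 4 groups together, IDH3A was the 1 member of 31 with an unadjusted p under 0.05 in the limma F test (5.71% of all probe sets), at an adjusted p of 0.710.

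Subunits of the same complex were set side by side. IDH3A, IDH3B and IDH3G form the NAD-dependent isocitrate dehydrogenase, the last pair being its regulatory subunits, and with progesterone they had log2 changes against placebo of −0.57, 0.33 and −0.00. Their intervals were −0.98 to −0.16 for IDH3A, −0.14 to 0.79 for IDH3B and −0.37 to 0.37 for IDH3G. The other probe sets of IDH3B had 0.08 and −0.18, and the difference between subunits was not tested. In the oxoglutarate dehydrogenase complex, OGDH, the decarboxylase, had 0.19 and DLST 0.52 with both steroids, 0.18 and 0.39 with estrogen, and 0.37 and 0.02 with progesterone. OGDH varied widely within groups, with 864, 611 and 396 on the progesterone arrays, against 516, 432 and 455 on the placebo arrays.

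Probe sets of the same gene also differed. IDH3B had 2 other tested probe sets; for estrogen plus progesterone against estrogen the brightest had a log2 difference of 0.19 and the next 0.15, while the dimmest had −0.53 (limma adjusted p = 0.999), with 90.8, 87.0 and 97.8 with both steroids against 149, 104 and 152 with estrogen. PGK1 had 1 other tested probe set, at −0.40, 0.10 and −0.34 against placebo with both steroids, estrogen and progesterone, where the brightest had 0.18, 0.25 and 0.22. The dimmer probe set of PGK1 read 86.2 to 203 over the 12 arrays and the brightest 4339.5 to 5832.

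GAPDH, the glycolytic dehydrogenase often used as a loading standard, was measured by its own probe set and by array controls at the 5′ end, the middle and the 3′ end of its transcript. Its probe set had 6176, 4537 and 5400.1 with estrogen plus progesterone, 6249, 4151 and 4788 with estrogen, 4513, 5770.2 and 5804 with progesterone, and 7389.8, 5632 and 5194 with placebo. The log2 changes against placebo were −0.21, −0.29 and −0.24 for the 3 treatments (SE 0.18 each, limma adjusted p of 0.794 or more), and the groups overlapped in every comparison. The 5′ control had log2 changes of −0.17 with both steroids and −0.47 with estrogen, and the 3′ control 0.00 and −0.05 under the same treatments. The 5′ control read 8363 to 10923 with progesterone, above the 6878 to 7886 of placebo, and the 3′ to 5′ ratio was 0.892 to 1.22 with progesterone, against 1.05 to 1.46 with placebo. With progesterone the sign of the change differed between the ends of the transcript, at 0.16 ± 0.25 for the 5′ control and −0.18 ± 0.15 for the 3′ control (SE, n = 3 each), and neither passed the test. Before normalization the 3′ and middle controls averaged 9822 and 11814 with progesterone, against 9573 and 10207 with placebo, although their log2 changes after it were −0.18 and −0.03.

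**Figure D5:**
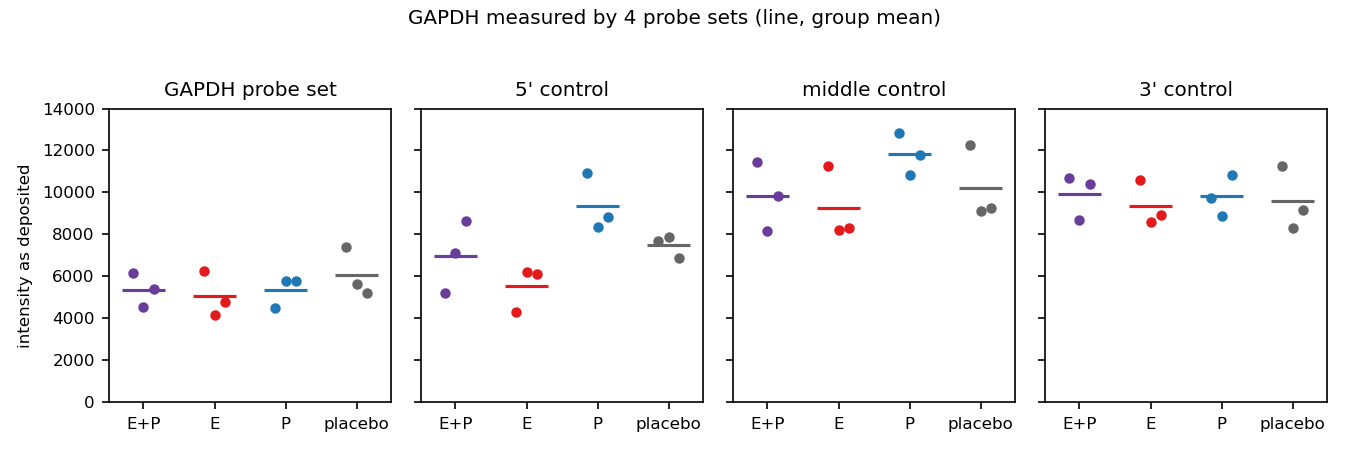
Deposited intensity of the GAPDH probe set and of the 5′, middle and 3′ GAPDH array controls on each array (points; bar, group mean) with estrogen plus progesterone (E+P), estrogen (E), progesterone (P) and placebo. All progesterone points are above all placebo points on the 5′ control, and the lowest 5′ values, 4306 and 5219, belong to array 1 of the estrogen and of the estrogen plus progesterone group.

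The arrays with the high ribosomal RNA signal were both extreme for 4 of 31 members, a share no larger than that of all probe sets. Array 1 of the estrogen plus progesterone group and array 1 of the estrogen group were both above the other 10 arrays for 3 of 31 members, IDH2, IDH3A and DLST (10.3% of all probe sets), and both below them for 1, PC (7.35%). IDH2, the mitochondrial NADP-dependent isocitrate dehydrogenase, read 664 and 554 on these arrays, against 293 to 468 on the other 10. PC read 149 and 145, against 184 to 265. Without these arrays the log2 change of IDH2 against placebo was −0.02 with both steroids, where it was 0.23 with them, and that of PC was 0.17, where it was −0.11 with them. The change of IDH3A with progesterone, which uses neither array directly, was −0.58 without them (limma adjusted p = 0.254).

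The 4 dim members were close to background. HK2, a hexokinase, read 4.13 to 22.04 over the 12 arrays, and DLD and DLAT, the dihydrolipoyl dehydrogenase and the acetyltransferase of the pyruvate dehydrogenase complex, read 7.59 to 27.1 and 1.39 to 30.5. PDHA1, the alpha subunit paired with PDHB, had 26.9, 32.8 and 27.6 with estrogen plus progesterone, 39.4, 16.4 and 35.6 with estrogen, 16.9, 37.0 and 30.5 with progesterone and 10.3, 18.9 and 20.8 with placebo. These values lay below the 53.2 at which probe sets were left out, so nothing was drawn from their order.

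Of 67 related genes listed beside the members, such as pyruvate dehydrogenase kinases, succinate dehydrogenase subunits, glycogen enzymes and malic enzymes, 54 had a probe set and 35 were tested. Limma called 0 of the 35 in every comparison. With progesterone against placebo, 21 were above 0 and 14 below, with a median log2 change of 0.04, and 2 of 35 (5.71%) had an unadjusted p under 0.05, against 8.27% of all probe sets. ME1, the cytosolic malic enzyme, which makes NADPH from malate, had 708, 654 and 897 with progesterone, against 274, 560.1 and 445 with placebo, a log2 change of 0.85 ± 0.29 (SE, n = 3 each; limma adjusted p = 0.491). Its progesterone arrays were all above the placebo arrays, but the other probe set of ME1 had a log2 change of −0.35. GBE1, the glycogen branching enzyme, had 132, 104 and 116 with progesterone, against 150.3, 199.9 and 179 with placebo, a log2 change of −0.55 ± 0.23 (SE, n = 3 each; limma adjusted p = 0.564).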

How the data were processed

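Biotin-labelled total RNA of 12 monkeys was hybridised to 1 human array each, per the labels. The authors deposited 1 intensity per probe set and array on a linear scale. Each array's 2% trimmed mean was 200.1; how probes were summarised is not given in the sources used here. All columns were mapped to samples.

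Of 12625 probe sets, 67 array controls were left out of the tests, 10943 of the others had 1 gene symbol in the platform annotation, 545 several and 1070 none. The deposited intensities were quantile normalized (array medians on the log2 scale spanned 0.211), an offset of 8.2568 (their pooled percentile 10) was added before log2, and the 40% of probe sets with the lowest mean (at most 53.2) were left out, which kept 7535. Limma 3.58.1 in R 4.3.3 (lmFit, eBayes, 2-sided) was fitted over all 12 arrays with group means, and p was adjusted by Benjamini-Hochberg over all 7535, with a threshold of 0.05. The procedure was tested on simulated data with added changes far larger than those of the members. That test does not show whether changes of the members' size would be called. Groups were said not to overlap on the deposited intensities. Deviations of same-numbered estrogen plus progesterone and estrogen arrays from their group means correlated at 0.398, 0.294 and 0.131. Estrogen array 3 correlated more with estrogen plus progesterone array 2, at 0.195, so a pairing by number was not established. The labels name no pairing, and both arrays 1 had high ribosomal RNA signal. Over all groups 4 of 18 same-numbered pairs exceeded 0.1, and 5 of 12 arrays correlated best with their own number. The number of arrays limits the precision. Limma's p sets each group difference against the spread between arrays of a group, each array carrying 1 monkey.

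All members were named; those with an unadjusted p under 0.05 got full statistics, and the others given array by array were chosen after their values were seen, as was the dim IDH3B probe set. Related genes were named where p was under 0.05, at most 3 per direction. The members and lists were chosen with earlier results of these data known. Alternatives covered scaling, offset, filter, prior, array weights, groups fitted, the replicate block, probe set choice and left-out arrays. No sequence or coordinate was used here.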

Additional observations from a re-analysis of the deposited data

How the results depend on the processing

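Limma called 0 of 31 members in every comparison and under each of the 24 or 25 alternatives run for it (IDH3A, SUCLG2, SLC2A3, DLST and IDH1 are not tested once the lowest 60% are left out), and the lowest adjusted p of a member under any of them was 0.212, for IDH3A with progesterone against placebo. The log2 change of IDH3A in that comparison lay between −0.66 and −0.42, of SUCLG2 between −0.59 and −0.37, of SLC2A3 between 0.29 and 0.54, and that of IDH3A with both steroids against progesterone between 0.37 and 0.67. Counts of probe sets called in the whole table were small and unstable, and the cause was not tested. With progesterone against placebo (3 called) they were 1 on the values as deposited, 5 with an offset of 32, 5 with no filter, 0 with the lowest 60% left out, 18 with array weights and 12 without both arrays of high ribosomal RNA signal. With estrogen plus progesterone against placebo (1 called) they were 2 as deposited, 2 with array weights, and 0 with an offset of 32, no filter, the lowest 60% left out, a variance trend with robust fitting, without both arrays, and with a fit of only the groups compared. Against progesterone (1 called) they were 5 with an offset of 32, 6 with no filter, 0 with 60% left out, 2 with the trend, 13 with array weights and 3 with only the groups compared. The interaction (0 called) had 1 with no filter and 2 with array weights. Any difference among the groups (4 called) had 2 as deposited, 0 with a common median, 1 with an offset of 1, 0 with an offset of 32, 0 with 60% left out, 2 with the trend, 11 with array weights, 2 without both arrays and 0 with GAPDH controls let in. Leaving out 1 array at a time gave 0 members called throughout, and whole-table counts of 0 with estrogen, 0 to 6 with progesterone, 0 to 2 with both steroids, 0 to 2 for both steroids against estrogen, 0 to 7 against progesterone, 0 for the interaction and 0 to 4 for any difference.

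In the pairs of groups other than estrogen plus progesterone with estrogen, correlations of same-numbered arrays ran down to −0.223. With the replicate number as a block, the whole-table counts were 0 for both steroids against estrogen, 0 with progesterone and 1 with both steroids. They were 0 for both against progesterone, 0 for the interaction and 0 for any difference, and 0 members were called. On normalized values, compared after seeing the data, the members whose arrays did not overlap numbered 3 with both steroids against placebo (5 as deposited), 1 for both against estrogen (0) and 7 with progesterone (9).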

Other observations

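Among the other related genes tested, SDHA, the flavoprotein subunit of succinate dehydrogenase, which links the citric acid cycle to the respiratory chain, had intensities of 1165, 1452 and 1022 with estrogen plus progesterone, against 1525, 1347 and 1880 with estrogen. The log2 difference was −0.38 ± 0.17 (SE, n = 3 each, limma adjusted p = 0.999), and the groups overlapped. SDHA was the 1 of 35 related genes with an unadjusted p under 0.05 in that comparison, or 2.86%, against 2.8% of all probe sets. The brightest probe set of ME1 had 402, 535 and 340.4 with both steroids, against 708, 654 and 897 with progesterone alone. That is a log2 difference of −0.81 ± 0.29 (SE, n = 3 each, limma adjusted p = 0.518), while the other tested probe set of ME1 had 0.20. The interaction term of the brightest probe set was −1.11 ± 0.41 (SE, limma adjusted p = 0.929). In each of these, 1 of 35 related genes had an unadjusted p under 0.05, or 2.86%. Of all probe sets, 7.68% did so for both steroids against progesterone and 5.02% for the interaction. With estrogen against placebo, SDHA had a log2 change of 0.26, SDHC −0.21 and SDHD −0.44, so that the 3 subunits measured did not share a sign.

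With 3 monkeys per group, a member had to change by roughly its interval's half-width, 0.45 on the log2 scale at the median, for the interval to exclude 0 before adjustment. IDH3A, SUCLG2, DLST and SLC2A3 are among the dimmer tested probe sets, where probe mismatch with macaque RNA was not measured. Doses, ages and hybridisation batches were not used here.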
